A study of Mus musculus with 8 samples.

Results

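The unfolded protein response and the integrated stress response were described through 32 genes in mouse ovarian follicles given pregnant mare serum gonadotropin (PMSG, which stimulates follicle growth much as follicle-stimulating hormone does) with saline or with melatonin. Members were taken by gene name from the table of 55157 genes: 11 chaperones and cofactors of the endoplasmic reticulum (ER), 4 protein disulfide isomerases, 4 genes of ER-associated degradation, 3 stress sensors, 3 transcription factors and 7 targets of ATF4. The 32 names matched 33 identifiers, because Ddit3 has a second, short gene model that was listed at 0 in every library. Both groups came from Kunming mice, an outbred stock, at postnatal day 21, and the material was type 7-8 follicles isolated from the ovary 24 hours after injection. Control samples (n = 4) received PMSG and normal saline and melatonin samples (n = 4) received PMSG and melatonin, so there is no group without PMSG. The labels do not say whether a replicate is 1 animal or a pool, so p-values here reflect only how these 8 samples vary, and that variation may be technical.

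Secreted and membrane proteins fold in the ER. When unfolded proteins build up there, the sensors IRE1 (Ern1), PERK (Eif2ak3) and ATF6 are activated: IRE1 splices the Xbp1 mRNA, ATF6 is cut to release a transcription factor, and PERK phosphorylates the initiation factor eIF2, which slows translation but lets ATF4 be made. XBP1 and ATF6 raise chaperones and degradation factors, and ATF4 raises genes of amino acid synthesis and stress adaptation. Granulosa cells and oocytes secrete large amounts of hormone subunits and zona glycoproteins, so ER folding capacity is a regular part of follicle growth. A gene-level RNA value shows neither Xbp1 splicing, nor eIF2 phosphorylation, nor the translation of Atf4.

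The promoters are shown because some of the members carry elements through which the response is known to act. RefSeq promoters (build GRCm38.p6, 250 bases before to 50 after the gene start) were matched for 29 of the 32 members. The ER stress response element (ERSE, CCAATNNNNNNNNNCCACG, bound by ATF6 or XBP1 together with NF-Y) was searched on both strands and was found in 8 of the 29 members (27.6%), against 39 of 32851 promoters in the whole table (0.119%). Its relative ERSE-II (ATTGGNCCACG) was found in 2 members, Dnajb11 and Herpud1, and in 0.0365% of all promoters. The UPRE core (TGACGTGG) was in no member window and in 0.676% of all promoters. The core of the C/EBP-ATF composite element read by ATF4 (TGATGNAA) was in Asns, Chac1, Trib3 and Herpud1, and in 3.97% of all promoters. Simple CCAAT boxes, which the ERSE contains, were in 25 of 29 members and in 37.4% of all promoters. A match is a description of these letters and not evidence of binding. Only exact matches were counted, so a copy of an element with a changed letter was missed. The ERSE sites are given 5′ to 3′ in the direction of the motif, with the fixed letters in capitals and the free spacer in lower case.
Hspa5: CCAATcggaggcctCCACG
Hsp90b1, first site: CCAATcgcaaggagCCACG
Hsp90b1, second site: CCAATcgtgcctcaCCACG
Calr: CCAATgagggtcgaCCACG
Canx: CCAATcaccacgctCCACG
Creld2: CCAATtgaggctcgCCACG
Pdia6: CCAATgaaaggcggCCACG
Dnajc3: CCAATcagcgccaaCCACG
Syvn1: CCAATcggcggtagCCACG

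3 promoters are shown whole, since they hold the different arrangements of exact matches. These are a single ERSE match close to the start, a pair of ERSEs in opposite orientation, and an ERSE-II together with a composite element. The Hspa5 CCAAT box at -98 from the gene start has CCAAC after the spacer in place of CCACG, and was not counted. Matches are in capitals and each run reads along the gene's own strand. Hspa5 is at chr2:34771840-34772139 (plus strand), Hsp90b1 at chr10:86705395-86705694 (minus strand) and Herpud1 at chr8:94386179-94386478 (plus strand).
Hspa5: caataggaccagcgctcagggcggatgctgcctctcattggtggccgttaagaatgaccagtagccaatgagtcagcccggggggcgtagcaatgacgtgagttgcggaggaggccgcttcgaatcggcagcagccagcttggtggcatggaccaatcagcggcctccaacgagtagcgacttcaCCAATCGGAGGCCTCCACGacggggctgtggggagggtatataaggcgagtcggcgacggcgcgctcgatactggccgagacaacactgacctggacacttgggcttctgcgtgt
Hsp90b1: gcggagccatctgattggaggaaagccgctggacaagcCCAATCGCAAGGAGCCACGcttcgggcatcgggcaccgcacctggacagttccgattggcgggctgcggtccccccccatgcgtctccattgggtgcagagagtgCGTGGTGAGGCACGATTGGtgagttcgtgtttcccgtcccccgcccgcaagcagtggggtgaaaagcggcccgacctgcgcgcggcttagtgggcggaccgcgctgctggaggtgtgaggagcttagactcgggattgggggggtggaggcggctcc
Herpud1: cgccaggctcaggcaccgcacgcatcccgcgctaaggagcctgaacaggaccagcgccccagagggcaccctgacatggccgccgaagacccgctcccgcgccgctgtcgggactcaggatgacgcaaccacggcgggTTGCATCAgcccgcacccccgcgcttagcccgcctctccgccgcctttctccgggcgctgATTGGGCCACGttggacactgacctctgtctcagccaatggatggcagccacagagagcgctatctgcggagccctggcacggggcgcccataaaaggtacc

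**Figure D1:**
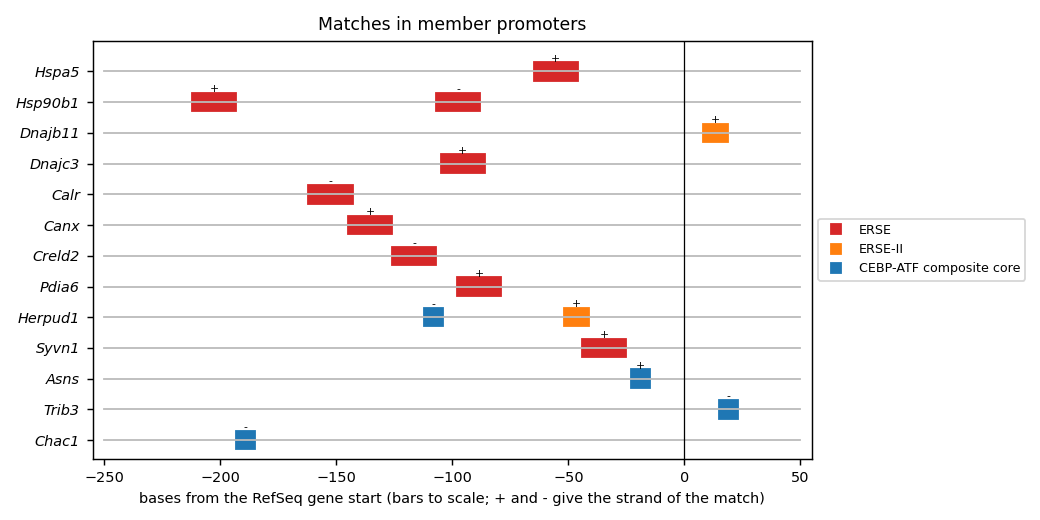
Matches of the ERSE, the ERSE-II and the C/EBP-ATF composite core in the member promoters that hold any, against the distance from the RefSeq gene start in bases. All 9 ERSE matches, in 8 promoters, lie before the start, and Hsp90b1 holds 2 of them.

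The values are FPKM (fragments scaled to exon length and to library depth), which allow levels to be compared between genes. The FPKM steps imply 17451111 to 22034312 fragments per control library and 18553187 to 23649205 per melatonin library. Hspa5 rested on 172179 fragments over the 4 control libraries and Ddit3 on 1207. Markers of granulosa cells (10 of 10 genes at 1 FPKM or more) and of the oocyte (10 of 10) were present, as the label of follicles requires. Other cells were present too: markers of red blood cells summed to 66.5 to 1541 FPKM in control and 122 to 478 in melatonin libraries, and those of leukocytes to 29.1 to 129 and 26.4 to 44.8, highest in control replicate 3 for both. The T-cell gene Cd3e never passed 0.04 FPKM. Markers of the ovarian surface epithelium were negative in 5 of 5 tested genes, 3 at an unadjusted p under 0.05, and summed to 49.9 to 77.7 FPKM in control libraries against 42.0 to 47.2 with melatonin, without overlap. Theca markers were negative in 6 of 7 (973 to 1323 and 607 to 1172 FPKM), stroma markers in 7 of 7 (44.3 to 94.1 and 28.4 to 56.1) and endothelial markers in 5 of 5 (9.72 to 15.4 and 8.02 to 11.6). Granulosa markers summed to 7311 to 9420 FPKM in control and 6188 to 6984 in melatonin libraries, also without overlap. Of these, 9 of 10 had a negative log2 fold change. At an unadjusted p under 0.05, 5 granulosa, 3 theca, 2 endothelial and 0 stroma markers were lower, and 0 were higher. Oocyte markers were negative in 9 of 10, leukocyte in 6 of 6, red blood cell in 4 of 4 and smooth muscle in 2 of 3. In these last lists, 0 markers were lower or higher at that level. Over all tested genes, 52.5% were negative and 9.74% were lower at that level. In bulk follicles, fewer cells of a type and less RNA per cell cannot be told apart, and the part of cell makeup in the results below was not tested.

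ER chaperones were among the most abundant messages of these follicles. In control libraries the order of the leading members was Calr at 548 ± 34.5 FPKM, Hspa5 at 501 ± 49.5, Pdia3 at 465 ± 33.1, P4hb at 402 ± 27.9 and Hsp90b1 at 401 ± 33.2 (SD, n = 4). The ranges of neighbours in these first 5 overlapped, although Calr was above Hspa5, and Hspa5 above Pdia3, in each of the 4 libraries. P4hb and Hsp90b1 changed places between libraries. Over both groups Calr ranked 34 and Hspa5 ranked 42 among the 14738 tested genes. Members together made up 1.33 ± 0.061% of all FPKM in control and 1.26 ± 0.018% in melatonin libraries. ATF4 and its targets covered a wide range in control: Atf4 had 57.3 ± 4.03 FPKM, Ddit4 43.0 ± 23.6, Phgdh 15.3 ± 2.74, Asns 9.34 ± 0.76, Psat1 5.11 ± 0.61 and Sesn2 3.42 ± 1.09, and Trib3 and Chac1 lay under 1 FPKM. Ddit3 had 8.65 ± 0.73 FPKM.

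**Figure D2:**
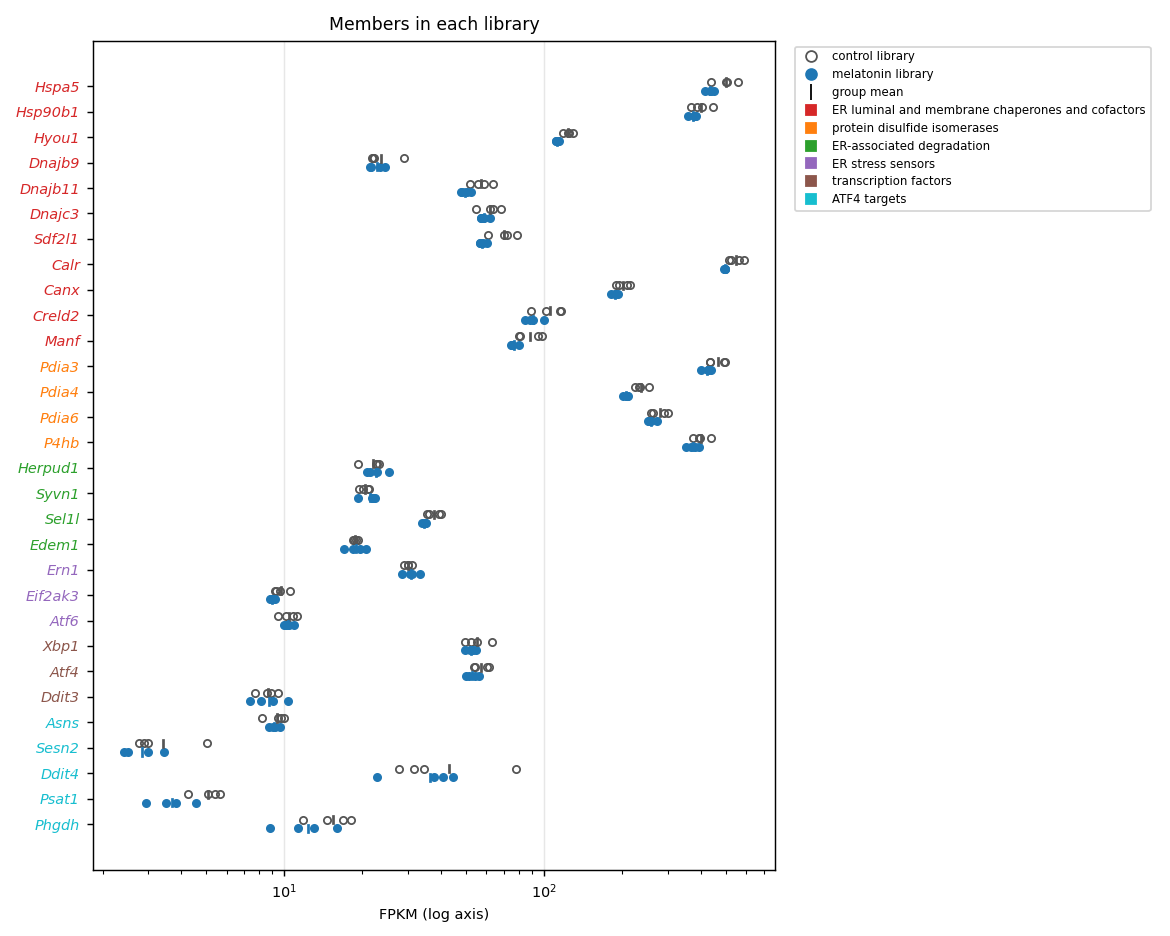
FPKM of the 30 tested members in each of the 8 libraries, on a log axis; open circles are control, filled circles melatonin libraries, and ticks the group means. Of the chaperones and disulfide isomerases, Dnajb9 alone lies under 40 FPKM, and Ddit4 has 1 control library, at 78.2, far from the others.

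No member passed the test between melatonin and control. Mean values of the 15 chaperones and disulfide isomerases were lower with melatonin by 0.05 to 0.27 on the log2 scale. Hsp90b1, Dnajc3, Pdia6 and P4hb did not keep this direction after quantile normalization, nor did Dnajb9 without control replicate 1. Median log2 fold changes of the sensors, transcription factors, degradation genes and ATF4 targets were -0.004, -0.07, 0.02 and -0.18. A filter of a mean of at least 1 FPKM kept 30 of the 32 members, Trib3 and Chac1 being left out. limma on log2(FPKM + 1) called 0 of the 30 and 0 of all 14738 genes at an adjusted p under 0.05 (background 0%); 9 of the 30 had an unadjusted p under 0.05 and were lower, where 9.74% of all tested genes did so, and 0 were higher, where 9.4% did so. Log2 fold changes were negative for 25 of 30 members (52.5% of all tested genes), with a median of -0.11 beside -0.01 over all tested genes. After quantile normalization 21 of 30 were negative. The 4 melatonin values lay below all 4 control values in 6 members, where 5.94% of tested genes did so, and above them in 0, where 5.79% did so. The smallest adjusted p of a member was 0.148, for Sdf2l1. limma-voom on the recovered fragments also called 0 genes, with 2683 of 13812 at an unadjusted p under 0.05.

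Level and scaling bear on these counts. Of the 365 tested genes that averaged 100 FPKM or more, 75.6% had negative log2 fold changes, with a median of -0.09, and 21.1% were lower at an unadjusted p under 0.05, beside 3.01% higher. The 9 members at that level were all negative, with a median of -0.13, and 4 of the 9 were lower at an unadjusted p under 0.05, which is read against that 21.1%. Of these 9, 3 had all melatonin values below the control values, where 14.5% of genes at that level did so, and 0 had them above, where 1.92% did so. After quantile normalization, which gives every library the same distribution, 2 members in place of 9 were lower at an unadjusted p under 0.05, where 8.01% of all genes were so in that setting, 1 in place of 6 did not overlap, and the median was -0.03. The count of 9 became 5 without melatonin replicate 1, 2 or 4, where 6.52%, 7.97% and 7.93% of all tested genes were lower at that level. It stayed within 1.5 times of 9 without any other library, where that share ran from 7.57% to 11.1%. The 6 members without overlap became 3 after correction for GC content and exon length and 3 of 29 with limma-voom on recovered fragments. With 1 library fewer to separate, they became 13 without control replicate 4 and 10 without melatonin replicate 3. The share of all tested genes without overlap was taken only for the fit as reported, so the overlap counts from other settings have no background.

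**Figure D3:**
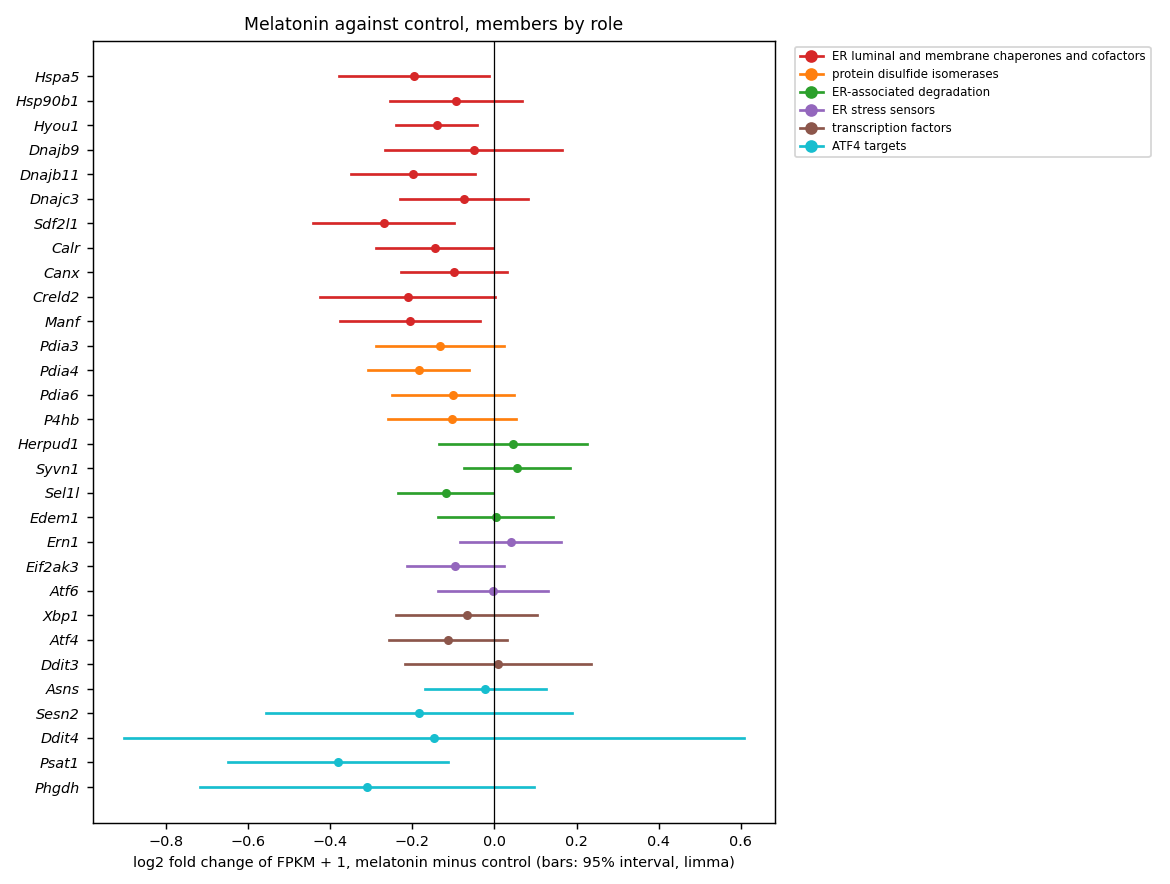
Log2 fold change of each tested member on the log2(FPKM + 1) scale, melatonin minus control, with the 95% interval from limma, coloured by role. The 15 chaperones and isomerases have points left of 0, from -0.27 for Sdf2l1 to -0.05 for Dnajb9. Hsp90b1, Dnajc3, Pdia6 and P4hb turn positive after quantile normalization, and Dnajb9 without control replicate 1. The interval of Ddit4 is the widest of the 30.

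Among the chaperones and cofactors, 11 of 11 had negative log2 fold changes (median -0.15), beside 52.5% of all tested genes and 75.6% of those at 100 FPKM or more. Hsp90b1 and Dnajc3 turned positive after quantile normalization, and Dnajb9 without control replicate 1 (0.044). At an unadjusted p under 0.05, 6 of the 11 were lower (9.74% of all tested genes and 21.1% of those at 100 FPKM or more). No overlap between groups was seen for 3 (5.94% and 14.5%). Sdf2l1, a cofactor of BiP (chromosome 16, 17130138 to 17132383), had 71.9, 70.0, 78.6 and 60.6 FPKM in control replicates 1 to 4 and 58.0, 56.8, 60.3 and 56.5 in melatonin replicates 1 to 4. The melatonin values all lay below the control values, the nearest pair being control replicate 4 and melatonin replicate 3. Its log2 fold change was -0.27 ± 0.08 (SE; 95% interval -0.44 to -0.10; limma adjusted p = 0.148). Hyou1, a large HSP70-type chaperone that exchanges nucleotide on BiP (chromosome 9, 44379490 to 44392369), had 129, 124, 124 and 118 FPKM in control and 113, 111, 111 and 114 in melatonin libraries. The groups did not overlap, and the melatonin libraries lay close together (log2 fold change -0.14 ± 0.04 SE, limma adjusted p = 0.163). Calr, calreticulin, a calcium-binding lectin chaperone (chromosome 8, 84841850 to 84846934), had 563, 589, 526 and 514 FPKM in control and 490, 497, 495 and 497 in melatonin libraries. Here too the groups did not overlap (log2 fold change -0.15 ± 0.06 SE, limma adjusted p = 0.255).

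Hspa5, which encodes BiP, the main HSP70 of the ER and the usual readout of the response (chromosome 2, 34771970 to 34777547), falls outside the naming rule and was named after its values were seen. Hspa5 had 559, 500.2, 506 and 438 FPKM in control and 435, 418, 453 and 437 in melatonin libraries. Control replicate 1 was highest, and control replicate 4 lay inside the melatonin range, so the groups overlapped (log2 fold change -0.20 ± 0.08 SE; 95% interval -0.38 to -0.01; limma adjusted p = 0.236). After quantile normalization the log2 fold change of Hspa5 was -0.06. The other 7 of these genes had log2 fold changes from -0.21 for Creld2 to -0.05 for Dnajb9, with overlapping groups. Hsp90b1, the HSP90 of the ER, was at 401 ± 33.2 and 375 ± 12.2 FPKM (SD, n = 4 each), and its log2 fold change of -0.09 turned to 0.04 after quantile normalization. After correction for GC content and exon length, the log2 fold change of Hsp90b1 was -0.14.

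All 4 protein disulfide isomerases, which form and reshuffle disulfide bonds, had negative log2 fold changes (median -0.12). Pdia6 and P4hb turned positive after quantile normalization (0.01 and 0.03). All 4 averaged more than 100 FPKM, a level at which 75.6% of tested genes were negative. Pdia4 (chromosome 6, 47796141 to 47813430) had 254, 234, 232 and 223 FPKM in control and 208, 209, 202 and 210.4 in melatonin libraries. The groups did not overlap (log2 fold change -0.18 ± 0.05 SE; 95% interval -0.31 to -0.06; limma adjusted p = 0.150). Pdia3, the partner of calnexin and calreticulin in glycoprotein folding and the most abundant of the 4, had 497, 490.4, 437 and 436 FPKM in control and 427, 438, 401 and 429 in melatonin libraries. Melatonin replicate 2 lay just above the lowest control libraries, so the groups overlapped (log2 fold change -0.13 ± 0.07 SE, limma adjusted p = 0.331). Pdia6 and P4hb, the classical isomerase, were at -0.10 each.

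Of the genes of ER-associated degradation, 1 of 4 was negative and 3 were positive (median 0.02); Edem1 and Herpud1 changed sign when single libraries were left out. Sel1l, the adaptor of the HRD1 ubiquitin ligase (chromosome 12, 91806043 to 91849157), had 36.01, 39.98, 39.3 and 35.4 FPKM in control and 35.0, 34.7, 33.8 and 34.8 in melatonin libraries. These groups did not overlap, though control replicate 4 and melatonin replicate 1 were close (log2 fold change -0.12 ± 0.05 SE, limma adjusted p = 0.251). Syvn1, which encodes the HRD1 ligase itself and carries an ERSE, had 21.3, 19.4, 20.2 and 20.9 FPKM in control and 22.3, 19.3, 21.9 and 21.7 in melatonin libraries. The values of Syvn1 were intermixed (log2 fold change 0.05 ± 0.06 SE; 95% interval -0.07 to 0.18; limma adjusted p = 0.624). Edem1, a mannosidase-like factor, and Herpud1, a membrane scaffold of the degradation complex, had log2 fold changes of 0.003 and 0.04.

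Of the 3 sensors, 2 were negative and 1 positive, with none at an unadjusted p under 0.05. Ern1, which encodes the splicing nuclease IRE1, had 29.8, 31.1, 28.96 and 29.8 FPKM in control and 33.2, 31.1, 30.5 and 28.5 in melatonin libraries. The melatonin range enclosed the control range (log2 fold change 0.04; 95% interval -0.08 to 0.16; limma adjusted p = 0.717). Eif2ak3, the kinase PERK, had 10.5, 9.24, 9.32 and 9.64 FPKM in control and 9.03, 8.89, 9.20 and 8.82 in melatonin libraries. All melatonin values of Eif2ak3 were below the control ones, the closest being 9.20 and 9.24 (log2 fold change -0.10; 95% interval -0.21 to 0.02; limma adjusted p = 0.350). Atf6 had 10.8, 11.2, 9.46 and 10.2 FPKM in control and 9.95, 10.4, 10.1 and 10.9 in melatonin libraries, with mixed order (log2 fold change -0.004; 95% interval -0.14 to 0.13; limma adjusted p = 0.977).

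The 3 transcription factors overlapped between the groups. Xbp1 had 63.3, 55.4, 49.7 and 52.1 FPKM in control and 49.6, 53.2, 52.0 and 54.7 in melatonin libraries. Control replicate 1 was highest, and the lowest values of both groups nearly coincided (log2 fold change -0.07; 95% interval -0.24 to 0.10; limma adjusted p = 0.648). Atf4 had 54.1, 53.7, 61.4 and 60.1 FPKM in control and 49.9, 51.3, 56.2 and 54.2 in melatonin libraries. The upper control values came from replicates 3 and 4, which were not the libraries with the most chaperone RNA (log2 fold change -0.11; 95% interval -0.26 to 0.03; limma adjusted p = 0.362). Ddit3, the pro-apoptotic factor CHOP (chromosome 10, 127290774 to 127296288), had 8.57, 8.86, 7.71 and 9.46 FPKM in control and 8.17, 7.40, 10.4 and 9.02 in melatonin libraries. Melatonin libraries held both the lowest and the highest value (log2 fold change 0.01; 95% interval -0.22 to 0.23; limma adjusted p = 0.9746). Exons of Ddit3 share 68 bases with Mars on the opposite strand, and whether strand entered the counting is not stated. Other members share exon bases with opposite-strand genes too. Among them are Syvn1 (91 with Mrpl49), Manf (146 with Dcaf1), Hsp90b1 (415 with 1810014B01Rik) and Eif2ak3 (485 with Gm43292).

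The ATF4 targets hold amino acid synthesis genes and stress genes. Of the 5 tested, 5 had negative log2 fold changes (median -0.18), beside 52.5% of all tested genes. Asns and Ddit4 changed sign in other settings. At an unadjusted p under 0.05, 1 of the 5, Psat1, was lower, where 9.74% of all tested genes were so. Psat1, an aminotransferase of serine synthesis (chromosome 19, 15904678 to 15947337), had 4.26, 5.08, 5.42 and 5.67 FPKM in control and 3.83, 3.51, 4.56 and 2.94 in melatonin libraries. Only melatonin replicate 3 and control replicate 1 were out of order, and its log2 fold change of -0.38 ± 0.12 was the farthest from 0 of the 30 members (SE; 95% interval -0.65 to -0.11; limma adjusted p = 0.163). Phgdh, the first enzyme of the same pathway (chromosome 3, 98313170 to 98339990), had 14.6, 16.8, 18.1 and 11.8 FPKM in control and 13.0, 8.84, 16.0 and 11.3 in melatonin libraries. Values of Phgdh overlapped widely (log2 fold change -0.31 ± 0.18 SE, limma adjusted p = 0.375). Asns, asparagine synthetase, was at 9.34 ± 0.76 and 9.17 ± 0.37 FPKM (SD, n = 4 each).

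Ddit4, an inhibitor of mTORC1 that also responds to low oxygen and glucocorticoids, had 31.7, 34.6, 78.2 and 27.6 FPKM in control and 37.6, 40.9, 44.5 and 22.8 in melatonin libraries. Control replicate 3 was above all the others, and melatonin replicate 4 was lowest. The log2 fold change of Ddit4 was -0.15 ± 0.33 (SE, limma adjusted p = 0.835), and it turned to 0.18 without control replicate 3 and to 0.06 without melatonin replicate 4. Sesn2, a sestrin that also restrains mTORC1, falls outside the naming rule and was named after its values were seen. Sesn2 had 2.89, 2.98, 5.05 and 2.77 FPKM in control and 2.41, 2.98, 3.44 and 2.51 in melatonin libraries. Again control replicate 3 was highest, and without it the log2 fold change of Sesn2 was -0.02 in place of -0.18. That library also had the highest sums of leukocyte, red blood cell, granulosa and theca markers and the highest correlation with GC content (0.27). Its theca sum was mostly Hsd3b1, at 1264 FPKM. As a mean of log2(FPKM + 1) over theca markers, each centred over the libraries, it stood at 0.20. Control replicates 1 and 4 stood higher, at 0.35 and 0.23. The part of these markers and of GC content in the Ddit4 and Sesn2 values was not tested. Trib3, a pseudokinase induced by ATF4, had 0.27 to 0.77 FPKM over the 8 libraries, from 87 fragments in control and 79 in melatonin. Chac1, which breaks down glutathione, had 0.11 to 0.31 FPKM, from 27 and 33 fragments, so a modest difference was not detectable at this depth.

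**Figure D4:**
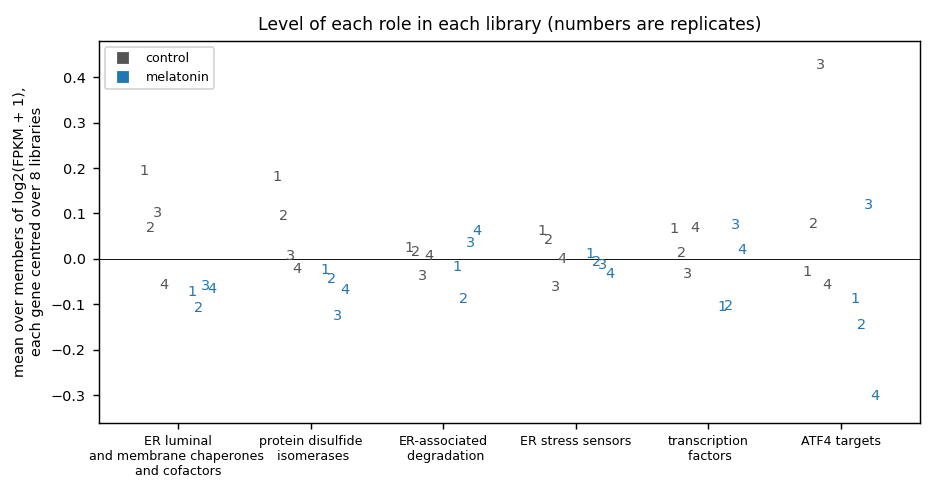
Mean over the tested members of each role of log2(FPKM + 1), after centring each gene over the 8 libraries; numbers mark replicates, grey for control and blue for melatonin. Chaperone scores span -0.06 to 0.19 in control libraries and lie between -0.11 and -0.06 in melatonin libraries, and control replicate 3 stands at 0.43 for the ATF4 targets.

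The members' values were spread more widely in control than in melatonin libraries. The summed FPKM of the 11 chaperones was 2351, 2219, 2167 and 1991 in control and 1962, 1937, 1969 and 1977 in melatonin libraries. Control replicate 4 sat beside the melatonin libraries, and control replicate 1 was highest. The standard deviation of log2(FPKM + 1) was larger in control for 15 of the 15 chaperones and isomerases and for 24 of the 30 tested members, beside 61.0% of all tested genes and 66.6% of those at 100 FPKM or more. The median standard deviation over the 15 was 0.118 in control and 0.048 in melatonin libraries, and over all tested genes 0.13 and 0.107. Members share libraries, so these counts are not separate observations. Within control, replicate 1 was highest for 15 and replicate 4 lowest for 16 of the 30 tested members. GC dependence and exon-length dependence also moved with the group. Over 14392 genes, the Spearman correlation of a library's deviation with GC content was between -0.02 and 0.27 for control libraries. For melatonin libraries it was between -0.18 and -0.12. With exon length it was between -0.11 and -0.05 for control and between 0.02 and 0.11 for melatonin libraries. These values are a description, since genes share a library. The part of either trend in the members' values was not tested beyond the correction that follows. After correction for GC content and exon length, 25 of 30 members were negative, Asns having turned positive and Edem1 negative, with a median of -0.10. At an unadjusted p under 0.05, 6 were lower (8.63% of all genes in that fit). Hyou1, Sdf2l1, Pdia4 and Psat1 were lower at that level both before and after the correction. Canx (-0.16) and Hsp90b1 (-0.14) were so only after it, and Hspa5, Dnajb11, Calr, Manf and Sel1l only before it.

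Members with and without an exact ERSE match had similar medians, and this difference was not tested. The 8 members with an ERSE had a median log2 fold change of -0.10, with 7 of 8 negative, and the 19 tested members in the promoter table without one had -0.11, with 15 of 19 negative. Of the 13 tested genes with an ERSE that are not members, 5 were negative and 8 positive, with a median of 0.01. One of these, Derl3, a channel component of ER-associated degradation, had 137 ± 15.7 FPKM in control and 160.1 ± 13.2 in melatonin libraries (SD, n = 4 each; log2 fold change 0.22 ± 0.09 SE, limma adjusted p = 0.243). It falls outside the naming rule and was named after its values were seen.

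Related gene lists gave the wider pathway, again with 0 genes past the threshold in any list. Their counts are set beside all tested genes, of which 52.5% were negative and, at an unadjusted p under 0.05, 9.74% were lower and 9.4% higher. Of 14 genes for eIF2, its kinases, its exchange factor and its phosphatases, 13 were negative (median -0.13), 7 with an unadjusted p under 0.05, and 0 were higher at that level. Summed over this list, control libraries had 269 to 281 FPKM and melatonin libraries 240.3 to 254, without overlap, as was also so for the sum over all tested genes (283672 to 298705 and 274138 to 280667). Ppp1cc, a catalytic subunit of protein phosphatase 1, had 49.9 ± 1.51 and 43.3 ± 1.00 FPKM (log2 fold change -0.20 ± 0.04 SE, limma adjusted p = 0.121). Eif2s1, the phosphorylated subunit of eIF2, had 25.2 ± 1.15 and 22.3 ± 1.15 (SD, n = 4 each; limma adjusted p = 0.168). The 1 positive gene was the kinase Eif2ak4 (GCN2), at 7.53 ± 0.61 and 7.75 ± 0.44 FPKM, named after its values were seen.

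Among 13 other bZIP factors and ATF6-processing genes 11 were negative (median -0.07), 6 with an unadjusted p under 0.05, where 9.74% of all tested genes were lower at that level and 52.5% negative. Their leading genes were Atf6b, a relative of Atf6 (75.8 ± 4.64 and 65.0 ± 3.83 FPKM, limma adjusted p = 0.148), and Nfe2l1, the proteasome-regulating factor (135 ± 5.12 and 118 ± 11.4 FPKM, limma adjusted p = 0.188). Of 23 other ATF4 targets, 22 were in the table and 19 were tested, of which 13 were negative (median -0.03), 7 with an unadjusted p under 0.05. Shmt2, the mitochondrial serine hydroxymethyltransferase, led that list with 30.6 ± 1.61 and 25.7 ± 1.48 FPKM (limma adjusted p = 0.127), followed by Slc3a2, the heavy chain of amino acid exchangers, with 64.7 ± 5.21 and 53.1 ± 3.81 (SD, n = 4 each; limma adjusted p = 0.146). Atf3, Atf5, Cebpb and Cebpg belong to both lists.

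Other ER folding genes were negative in 20 of 24 (median -0.08), with Erp29 (17.1 ± 1.26 and 14.4 ± 0.76 FPKM) and the thioredoxin-like Tmx2 (22.4 ± 0.71 and 19.998 ± 0.64) at the smallest p. Genes of the translocon, signal peptidase and oligosaccharyltransferase were negative in 20 of 22 (median -0.08), led by Ssr1 (33.7 ± 1.66 and 29.9 ± 0.65 FPKM) and Rpn1 (148 ± 8.14 and 131 ± 8.07). In each of these lists, an unadjusted p under 0.05 was met by 3 genes with lower and 1 gene with higher values, where 9.74% of all tested genes were lower and 9.4% higher; the lower share is near that background. Other degradation genes were evenly divided, with 9 of 18 negative (median -0.01), 4 lower and 1 higher at that level, where all tested genes had the same 9.74% and 9.4%. The smallest p among them belonged to Vcp, the segregase that pulls proteins from the ER membrane (85.2 ± 8.73 and 62.1 ± 12.4 FPKM; log2 fold change -0.46 ± 0.13 SE, limma adjusted p = 0.148), and to Faf2, a membrane recruiter of Vcp (13.8 ± 0.76 and 12.2 ± 0.24; SD, n = 4 each).

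**Figure D5:**
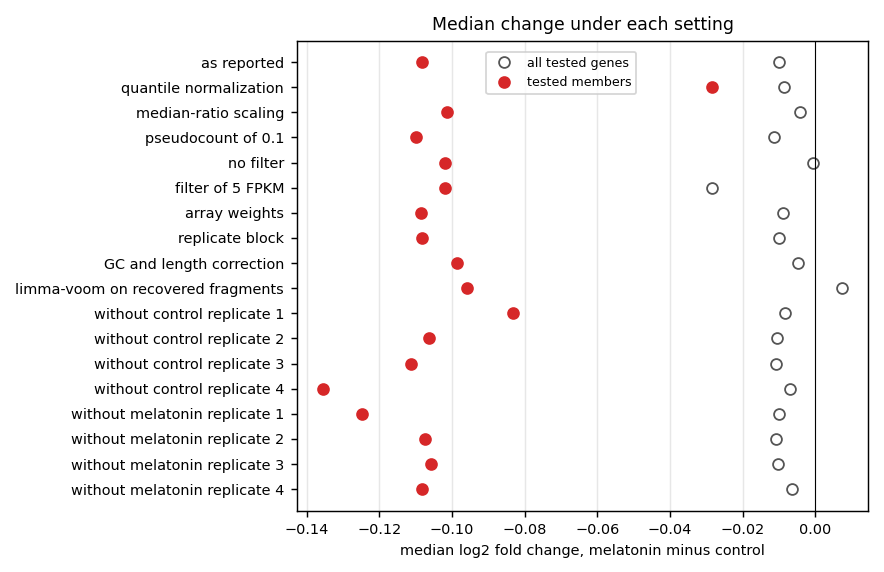
Median log2 fold change of the tested members (red) and of all tested genes (open) under each setting of the analysis. The members' median lies left of that of all genes in each of the 18 settings shown, from -0.14 without control replicate 4 to -0.03 after quantile normalization.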

How the data were processed

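Messenger RNA of mouse type 7-8 follicles was measured in 8 libraries, 4 control and 4 melatonin. Per the labels' protocols, the RNA came from Trizol and the libraries from a NEBNext Ultra kit. The submitters' processing notes name HISAT2 2.0.5 and the build mm10; how fragments were counted, with which annotation and strand setting, is not given. The values deposited by the authors are FPKM per gene, per the file headers. The 8 sample files and the series table differed in 0 values.

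Exon lengths from GENCODE M21 were found for 54495 of 55157 genes, and 98.8% of low values (up to 30 fragments) were whole fragments within 0.05. The limma-voom fit kept the 13812 tested genes whose values gave nearly whole fragments in every library. Syvn1 was the 1 tested member left out of it. For genes left out, these lengths may differ from those behind the FPKM, which was not tested. The 14738 genes that averaged 1 FPKM or more entered a limma 3.58.1 fit (R 4.3.3) on log2(FPKM + 1), which understates changes of low genes, with an intensity trend and group as the single term, and p-values were adjusted by Benjamini-Hochberg over all of them. On simulated data for this comparison (13812 genes, 200 changed) the test recovered 37.3% of genes changed by 0.5, 97.0% by 1 and 95.5% by 2 on the log2 scale, and called 5 unchanged genes. The simulation gave all genes the same dispersion and held no trend with GC content or exon length, unlike these data. Its smallest change, 0.5, was larger than that of any tested member (the farthest from 0 was -0.38, for Psat1). Recovery of changes of the members' size was therefore not tested. Chi-square per degree of freedom between replicates was 12.3 to 41.3, so no pair agreed within sampling noise. Same-numbered libraries did not deviate together in all pairs, and the numbers were not used as pairs.

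Values of every library were given for the 2 members of each role with the smallest p, its most abundant member, and all sensors and transcription factors; Hspa5 and Sesn2 were added after their values were seen. The 2 genes of each related list with the smallest p were named. Members and lists were chosen with earlier results of these data known. Alternatives were quantile and median-ratio scaling, a pseudocount of 0.1, filters of 0 and 5 FPKM, array weights, the replicate number as a block, removal of GC and length trends (splines with 5 degrees of freedom), limma-voom on recovered fragments (13812 genes) and leaving out each library. Promoters are RefSeq's (GRCm38.p6). Python 3.11.15 made tables and plots.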

Additional observations from a re-analysis of the deposited data

Results flagged for a closer look

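In 5 of 60 groups of 4 libraries, 1 tested member per group had a library set apart from the other 3 by a gap beyond Dixon's 95% critical value; chance flags about 1 in 20 groups. Control replicate 3 accounts for 3 of them: Ddit4 at 78.2 FPKM and Sesn2 at 5.05 FPKM were its high values, and Herpud1 at 19.2 FPKM was its low value. Dnajb9, a co-chaperone of BiP, was at 28.8 FPKM in control replicate 1, where the other control libraries had 21.7 to 22.1. Manf, a secreted ER stress protein, was at 80.2 FPKM in melatonin replicate 3, where the others had 74.7 to 75.3, a gap smaller than the distance between the group means of 88.4 and 76.3.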

How the results depend on the processing

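No member passed an adjusted p of 0.05 under any of the 17 alternatives, the smallest being 0.093. Over all genes, 1 was called without a filter (Mir6947) and 0 to 1 without 1 library (C1rb, without control replicate 1). Members lower at an unadjusted p under 0.05 numbered 2 after quantile normalization and 5 to 12 without 1 library. The share of all genes lower at that level was 8.01% after quantile normalization and 6.52% to 11.1% without 1 library. Members without overlap numbered 1 after quantile normalization, 3 after the GC and length correction, 3 with limma-voom and 6 to 13 without 1 library. No share of all genes was taken for overlap in these settings. The median of the tested members was -0.028 after quantile normalization and -0.136 to -0.083 without 1 library. With the replicate block, 8 members were lower at an unadjusted p under 0.05 (9.55% of all genes in that fit) and 0 passed. Control replicate 1 deviated most like melatonin replicate 2 (correlation 0.08), not like its own number. The largest correlation of any pair, 0.15, was between control replicate 3 and melatonin replicate 3, which share a number. Signs turned for values that did not pass: after quantile normalization for Hsp90b1 (0.042), P4hb (0.034), Pdia6 (0.011), Dnajc3 (0.021), Xbp1 (0.011) and Ddit3 (-0.0019); with array weights for Edem1 (-0.018) and Ddit3 (-0.033); after the GC and length correction for Edem1 (-0.018) and Asns (0.029); and for Atf6 with median-ratio scaling (0.0024) and limma-voom (0.017). Without 1 library, log2 fold changes ran from -0.038 to 0.051 for Edem1, -0.044 to 0.028 for Atf6, -0.312 to 0.178 for Ddit4, -0.087 to 0.044 for Dnajb9, -0.015 to 0.081 for Herpud1, -0.076 to 0.0064 for Asns and -0.070 to 0.076 for Ddit3. The cause of these changes was not tested. Trib3 and Chac1, with few fragments, were tested only without a filter.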
